A study of Arabidopsis thaliana with 10 samples.

Results

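WRKY, MYB and NAC factors are 3 large families of plant transcription factors, and 6 of their genes could be followed here through 24 hr of dexamethasone (DEX) treatment of Arabidopsis thaliana shoots. A gene was taken where the array's probe table gave a probe set that single gene symbol, made of a family name and a number, and WRKY53 was set aside by the rule. The 6 genes were WRKY6 (AT1G62300), WRKY20 (AT4G26640), WRKY22 (AT4G01250), WRKY42 (AT4G04450), WRKY47 (AT4G01720) and NAC014 (AT1G33060), out of 13356 genes named by a probe set. No MYB gene met the rule, so the 5 WRKY genes were set beside 1 NAC gene and the families were not compared as families. The RefSeq TAIR10.1 annotation holds 67 numbered WRKY symbols, 121 numbered MYB symbols and 81 numbered NAC symbols, and the genes beyond these 6 were not analysed here. The 6 are therefore a small set fixed by gene naming, and they do not stand for their families.

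Every plant carried pSHR:SHR-GR in shr-2, a mutant that lacks functional SHORT-ROOT (SHR) and expresses SHR joined to the glucocorticoid receptor (GR) from the SHR promoter. DEX lets the fusion protein enter the nucleus. Whole shoots were collected before treatment (0 hr, the control) and at 3, 6, 12 or 24 hr in 10 µM DEX. Each of the 5 times had 2 biological replicates, on 10 Affymetrix ATH1 arrays together. Treatment started 9 days after germination for the 24 hr samples and 10 days after germination for the shorter ones. The series holds no mock-treated arrays at the later times, so the effects of DEX, time of day, handling and age cannot be told apart, and the 4 comparisons with 0 hr share the same 2 control arrays.

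WRKY proteins bind the W-box, a short promoter element, through a domain that ends in a zinc finger, and many of them are induced within hours by microbial patterns, wounding, darkness or nutrient shortage. NAC proteins share an N-terminal DNA-binding domain and act in organ boundaries, secondary walls, senescence and stress. R2R3-type MYB proteins direct branches of metabolism such as glucosinolate and flavonoid synthesis, often with bHLH partners. WRKY22 acts downstream of the MAP kinase cascade of flagellin perception and in senescence in the dark. WRKY6 acts in senescence and defence, and together with WRKY42 represses the phosphate exporter gene PHO1. WRKY47 has been linked with cell wall genes under aluminium stress, WRKY20 belongs to the WRKY proteins with a pair of WRKY domains, and NAC014 belongs to the membrane-tethered NAC factors.

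Values are MAS5 signals on a linear scale, and changes are log2 fold changes of the signal plus 16. Folds between times are also of the signal plus 16, so they understate the ratios of the signals printed beside them. Median signals of the arrays ran from 181.5 to 191.5. A signal below 44.8, the 30th percentile of the mean signals of all probe sets, is called near background. The arrays 12 hr replicate 1 and 24 hr replicate 2 correlated slightly better with each other (0.9906 across probe sets) than with their partners (0.99 and 0.9887). Of the shoot markers, the Rubisco activase gene RCA was measured, with signals from 18810 to 25490. Of 7 root markers 3 were measured, and the root-hair expansin gene EXPA7 stayed near background at 1.83 to 21.5, EXPA18 ran from 10.0 to 85.2 and the beta-glucosidase gene PYK10 from 8262 to 10880.

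WRKY22 and WRKY6 changed over the time course, and WRKY20, WRKY42, WRKY47 and NAC014 did not pass the test. Both had their lowest mean signal at 3 hr and their highest at 6 hr. By limma's moderated F test over the 4 DEX times, 2 of the 6 genes were called, where 13.2% of all 22746 probe sets were called. The adjusted p was 0.00192 for WRKY22 and 0.0288 for WRKY6, and it ran from 0.127 for WRKY42 to 0.684 for WRKY20 among the rest.

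**Figure D1:**
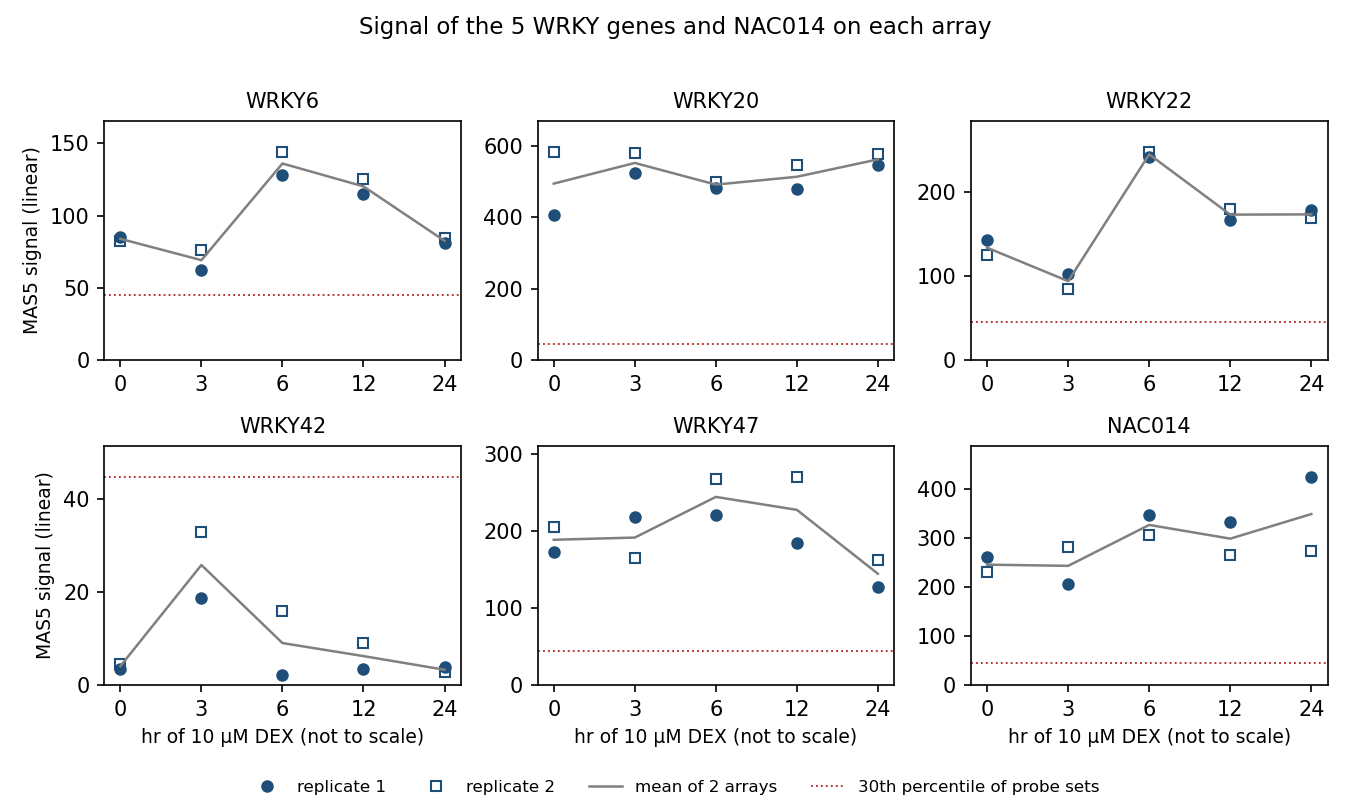
MAS5 signal (linear axes from 0) of each gene on each of the 10 arrays at 0, 3, 6, 12 and 24 hr of 10 µM DEX, with the mean of the 2 arrays of a time as a grey line and the 30th percentile of all probe sets (44.8) dotted. WRKY22 and WRKY6 have both 3 hr arrays below and both 6 hr arrays above both 0 hr arrays, and WRKY42 lies under the dotted line on all 10 arrays.

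WRKY22, the factor of flagellin signalling, had signals of 142.3 and 124.8 on the 0 hr arrays and 102.8 and 85.0 after 3 hr. After 6 hr its signals were 241.7 and 247.3. The signals were 166.3 and 179.5 at 12 hr and 178.0 and 168.4 at 24 hr. The 3 hr arrays were thus the lowest of all 10 and the 6 hr arrays the highest, while the 12 and 24 hr arrays lay between the control and the 6 hr arrays and overlapped each other. The order of the mean signals was 6, 24, 12, 0 and 3 hr, and only 24 and 12 hr were neighbours whose arrays overlapped.

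At 6 hr WRKY22 rose 1.74-fold over 0 hr (log2 fold change 0.80, SE 0.15, adjusted p = 0.00608 by limma), from 134 ± 12.4 to 245 ± 3.97 (SD, n = 2 arrays each). It was the only one of the 6 genes called at 6 hr against 0 hr, a comparison in which 9.36% of all probe sets were called, 5.17% as higher. Its log2 fold change was larger than that of 97.7% of the probe sets. At the same time the root marker EXPA18 fell from a signal of 83.9 to 20.4, near background (adjusted p = 0.00599), with a log2 fold change that ran from -2.18 to -0.82 with the offset, so no fold is given. Of the other measured root markers, PYK10 stood at 0.07 (adjusted p = 0.76), and EXPA7, near background, did not pass (adjusted p = 0.29). The shoot marker RCA stood at -0.35 (adjusted p = 0.0664), at -0.06 (adjusted p = 0.735) after quantile normalization, and passed with the dimmest 30% of the array left out (adjusted p = 0.0161). The part of these markers in the WRKY22 and WRKY6 values was not tested. Without control replicate 2 the change was 0.72 and the call was lost (adjusted p = 0.0521), and without any other 1 array the adjusted p ran from 0.00596 to 0.0491.

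At 3 hr WRKY22 stood at 0.73 times its 0 hr level, with a log2 fold change of -0.45 (95% interval -0.77 to -0.12) that did not pass (adjusted p = 0.0949). Both 3 hr arrays lay below both control arrays, and 49% of all probe sets had 3 hr arrays that did not overlap the control. From 3 to 6 hr it rose 2.38-fold (log2 fold change 1.25, SE 0.15, adjusted p = 0.000361), the 152nd largest value among the 22746 probe sets. That call was kept in each of the 10 fits without 1 array, with log2 fold changes from 1.13 to 1.37. From 6 to 12 hr the log2 fold change was -0.46 (adjusted p = 0.163), with both 12 hr arrays below both 6 hr arrays (46.5% of all probe sets did not overlap there), and from 12 to 24 hr it was 0.00 (95% interval -0.32 to 0.33). Against 0 hr the values were 0.34 (adjusted p = 0.353) at 12 hr and 0.34 (adjusted p = 0.333) at 24 hr.

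WRKY6, a factor of senescence, defence and phosphate supply, was dimmer. Its signals were 85.2 and 82.8 at 0 hr, 62.3 and 76.2 at 3 hr and 128.2 and 144.1 at 6 hr. At 12 hr they were 115.3 and 125.3, and at 24 hr 80.9 and 84.3. The 6 hr arrays were again the highest and the 3 hr arrays the lowest, but the 24 hr arrays overlapped the control arrays. In the order 6, 12, 0, 24 and 3 hr, only 0 and 24 hr were neighbours with overlapping arrays.

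From 3 to 6 hr WRKY6 rose 1.79-fold (log2 fold change 0.84, SE 0.17, adjusted p = 0.0123), from 69.2 ± 9.84 to 136 ± 11.2 (SD, n = 2 arrays each). WRKY22 and WRKY6 were the 2 genes of the 6 called in this comparison, in which 9.14% of all probe sets were called, 5.16% as higher. Leaving out 3 hr replicate 1 ended the call of WRKY6 (adjusted p = 0.0789), as did leaving out either 6 hr array (adjusted p = 0.0568 without replicate 1 and 0.0954 without replicate 2). Its call by the F test was lost without any 1 of 7 arrays, those of 0, 6 and 12 hr and 3 hr replicate 1, with adjusted p from 0.0514 to 0.113.

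Against 0 hr, WRKY6 had a log2 fold change of 0.60 (SE 0.17, 95% interval 0.22 to 0.99) at 6 hr and just missed the threshold (adjusted p = 0.055). It was called there in 3 of the alternative fits, which had an offset of 64 (adjusted p = 0.0367), left out the dimmest 30% of the array (adjusted p = 0.0254) or used no intensity trend (adjusted p = 0.0272). At 12 hr the value was 0.45 (adjusted p = 0.301), at 3 hr -0.24 (adjusted p = 0.489) and at 24 hr -0.02 (95% interval -0.41 to 0.37). Between 12 and 24 hr the log2 fold change was -0.47 (adjusted p = 0.361), with both 24 hr arrays below both 12 hr arrays (41.8% of all probe sets did not overlap there).

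The shape with both 3 hr arrays below and both 6 hr arrays above both control arrays was found in WRKY22 and WRKY6, 2 of the 6 genes, and in 2.99% of all probe sets. It is the shape already described for these 2 genes, so the shares are a description and not a test. Over the 10 arrays the log2 signals of WRKY22 and WRKY6 had a Pearson correlation of 0.83 and a Spearman correlation of 0.83. Over the 8 arrays without the 6 hr pair the Pearson correlation was 0.67. These points share the arrays and their groups, so the correlations are descriptions. The other 14 pairs of the 6 genes had Pearson correlations from -0.55 to 0.59.

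**Figure D2:**
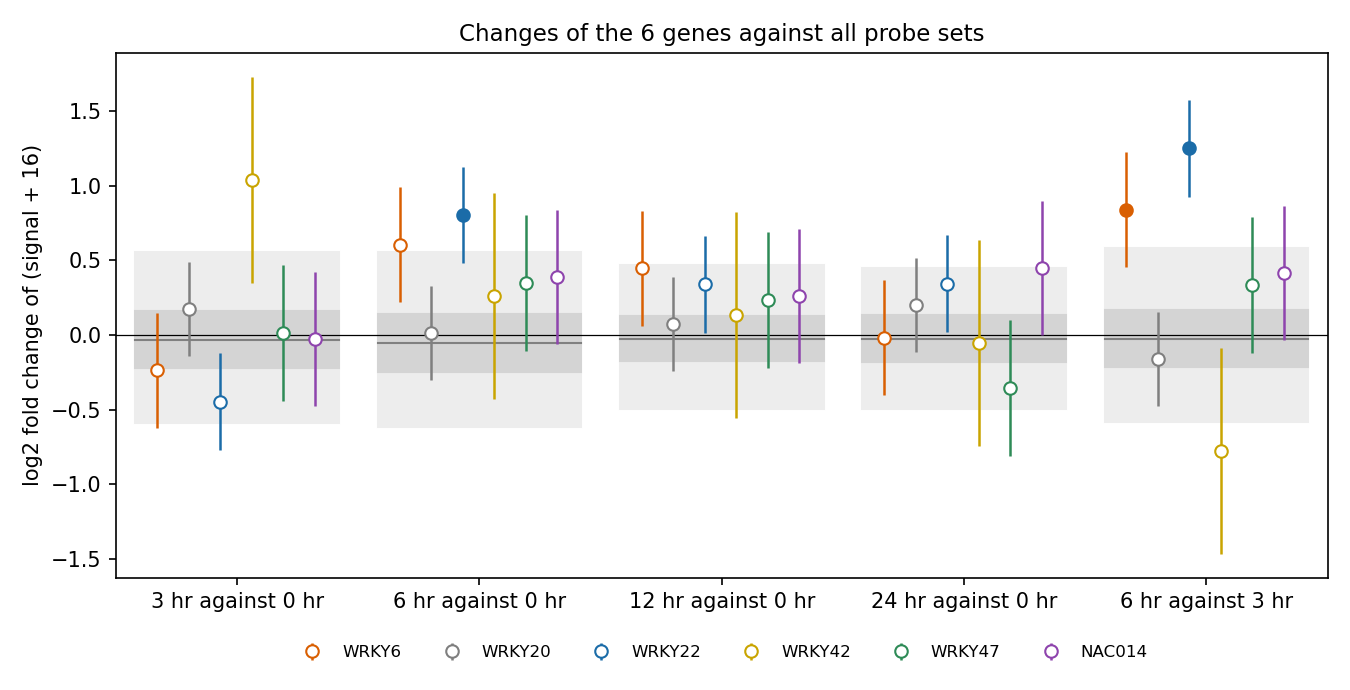
Log2 fold changes of (signal + 16) with 95% intervals from limma for the 6 genes in 5 comparisons. Filled points passed at an adjusted p under 0.05, light grey boxes span the 5th to 95th and darker boxes the 25th to 75th percentile of all 22746 probe sets with their median as a line. WRKY22 passed at 6 hr against 0 hr (0.80) and WRKY22 (1.25) and WRKY6 (0.84) at 6 hr against 3 hr.

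WRKY42, a partner of WRKY6 in repressing PHO1, was near background on all 10 arrays, with signals from 2.13 to 32.9. Its 3 hr arrays, at 18.8 and 32.9, were the brightest of the 10, and the control arrays stood at 3.52 and 4.64. The 6 hr arrays were at 2.13 and 15.9, the 12 hr arrays at 3.40 and 9.06, and the 24 hr arrays at 3.80 and 2.81. Both 3 hr arrays lay above every other array, as they did in 8.08% of all probe sets, but the log2 fold change at 3 hr did not pass (adjusted p = 0.0695) and ran from 0.40 to 2.36 with the offset added before the logarithm, so no fold is given. The probe set was not among those left when the lowest 30% were removed.

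WRKY47, linked with cell wall genes, had signals of 172.3 and 205.0 at 0 hr, 218.0 and 165.0 at 3 hr and 220.9 and 267.7 at 6 hr. The 12 hr arrays differed most, at 184.8 and 270.2, and the 24 hr arrays were the lowest at 126.8 and 162.2. Arrays of 6, 12, 3 and 0 hr overlapped their neighbours in the order of means. Both 6 hr arrays lay above both control arrays (53% of all probe sets did not overlap there). Both 24 hr arrays lay below both control arrays (42.6% of all probe sets did not overlap there). No comparison passed, with log2 fold changes against 0 hr from -0.35 (95% interval -0.81 to 0.10, adjusted p = 0.481) at 24 hr to 0.35 (95% interval -0.11 to 0.80, adjusted p = 0.359) at 6 hr. The step from 12 to 24 hr was -0.59 (adjusted p = 0.337). The log2 signal of WRKY47 had a correlation of 0.92 over the 10 arrays with the root marker PYK10, against -0.53 to 0.40 for the other 5 genes. PYK10 was also the gene of rank 2 among the 8693 searched below for likeness to WRKY47, so this value is a description. Neither gene was called by limma's F test (adjusted p = 0.168 for WRKY47 and 0.424 for PYK10). The correlation was computed for PYK10 alone of the root markers. The other measured root markers had different time courses. EXPA18 was lowest at 6 hr (10.0 to 30.8) and ran from 46.8 to 54.2 at 12 hr and from 66.9 to 71.7 at 24 hr. EXPA7, near background, was at its highest at 24 hr (20.5 to 21.5). The summed signal of the 3 measured root markers, nearly all of it from PYK10, was 9195 to 9780 on the 0 hr arrays, 8918 to 10480 after 3 hr, 9179 to 10610 after 6 hr, 9744 to 10950 after 12 hr and 8354 to 8984 after 24 hr, and its part in the WRKY47 values was not tested. In whole shoots fewer cells of a type and less RNA per cell cannot be told apart.

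WRKY20, of the WRKY proteins with a pair of WRKY domains, was the brightest and steadiest of the 6, brighter on average than 72.3% of the probe sets. Its highest signal was 1.44 times its lowest, and both extremes, 405.7 and 582.5, were those of the 2 control arrays. The DEX arrays ran from 479.6 to 579.3. All neighbours in the order of its mean signals overlapped. Its log2 fold changes against 0 hr ran from 0.01 (95% interval -0.30 to 0.33) at 6 hr to 0.20 (95% interval -0.11 to 0.52) at 24 hr, and none passed.

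NAC014, the membrane-tethered NAC factor, had signals of 260.5 and 230.5 at 0 hr and 205.4 and 280.8 at 3 hr. They were 346.7 and 306.3 at 6 hr, 331.6 and 265.4 at 12 hr and 424.3 and 273.0 at 24 hr. All 6 arrays from 6 hr onward lay above both control arrays, and among those 6 the times overlapped. The separation from the control, which was found in 53% of all probe sets at 6 hr, 45.7% at 12 hr and 42.6% at 24 hr, did not become a call. Its log2 fold change was -0.03 after 3 hr (95% interval -0.48 to 0.42) and 0.39 after 6 hr (adjusted p = 0.291). After 12 hr it was 0.26 (adjusted p = 0.641), and after 24 hr 0.45 (95% interval 0.00 to 0.90, adjusted p = 0.361). Without 24 hr replicate 1 or replicate 2 the 24 hr value was 0.15 or 0.75.

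By time, none of the 6 genes passed at 3 hr, where 8.22% of all probe sets were called, at 12 hr, where 1.6% were, or at 24 hr, where 0.958% were, all by limma. At an unadjusted p below 0.05 there were 2 of 6 at each of these times, WRKY22 and WRKY42 at 3 hr, WRKY6 and WRKY22 at 12 hr and WRKY22 and NAC014 at 24 hr. Of all probe sets 22.3%, 13.2% and 13.8% were below it at 3, 12 and 24 hr. Taken over the 5 WRKY genes, the median log2 fold change was 0.01, 0.35, 0.23 and -0.02 in the order of the DEX times, beside -0.03, -0.05, -0.03 and -0.03 over all probe sets. Without 1 array the median ran from -0.12 to 0.13 at 3 hr and from -0.02, without 12 hr replicate 2, to 0.39 at 12 hr, so neither kept its sign. At 6 and 12 hr all 6 genes had a log2 fold change above 0 in the fit to all 10 arrays, but 5 of these 12 values went below 0 in a fit without 1 array. At 6 hr they were those of WRKY20 (down to -0.24, and -0.02 after quantile normalization) and WRKY42 (-0.15), and at 12 hr those of WRKY20 (-0.18), WRKY42 (-0.05) and WRKY47 (-0.02). From 6 to 12 hr and from 12 to 24 hr none passed, where 2.39% and 0.114% of all probe sets were called, with 1 of the 6 (WRKY22) and 2 of the 6 (WRKY6 and WRKY47) at an unadjusted p below 0.05, which 13.8% and 10.8% of all probe sets reached.

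**Figure D3:**
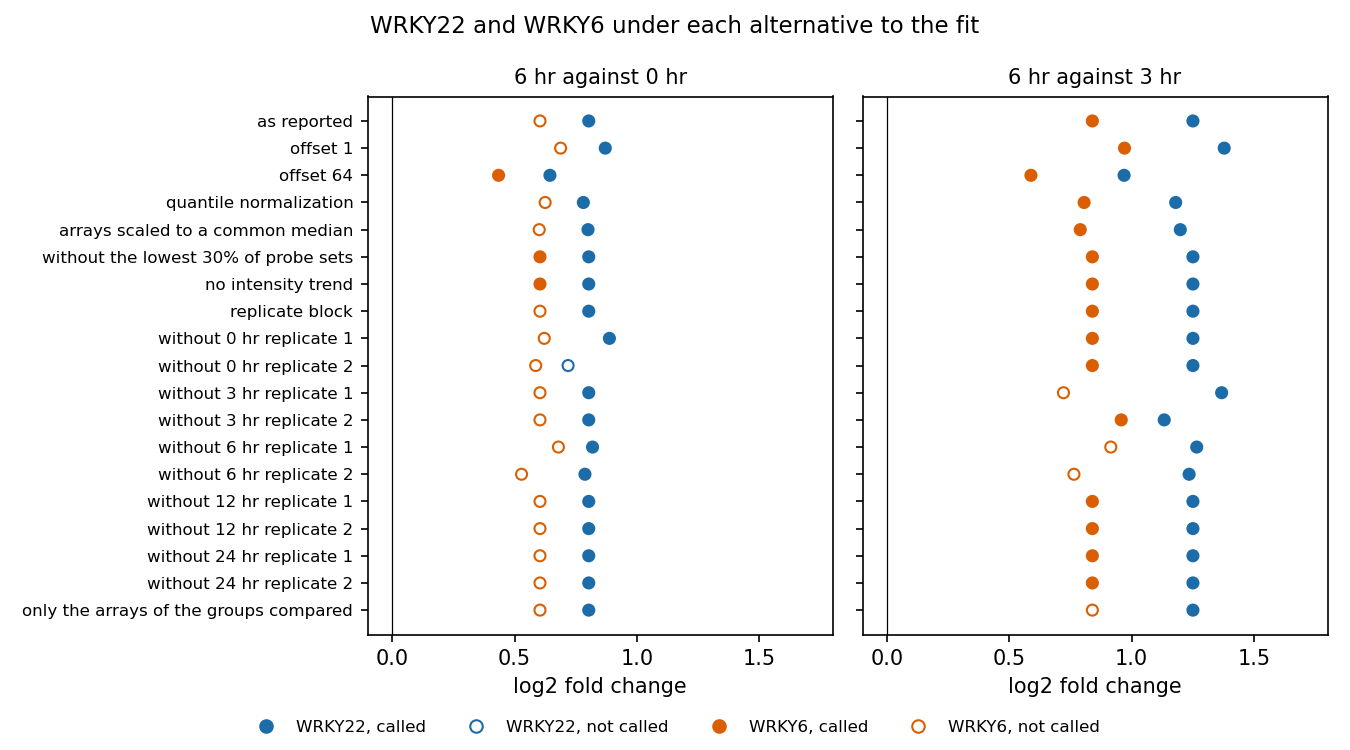
Log2 fold changes of WRKY22 and WRKY6 at 6 hr against 0 hr and at 6 hr against 3 hr, as reported and under each alternative to the fit, with filled points where the adjusted p was under 0.05. WRKY22 loses its call once, without 0 hr replicate 2 (0.72), and from 3 to 6 hr WRKY6 loses its call in 4 of the alternatives while every value stays above 0.

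The genes with the pattern most like a member were sought among 8693 named genes that were not near background, by Pearson correlation of log2 signals over the 10 arrays, a rule set after the number of members was known. For WRKY22 they were AT5G40690 (0.983), AT1G55450 (0.978) and AT1G54740 (0.977), and 0.679% of the genes had a correlation above 0.9. AT1G54740 had mean signals of 263.8, 151.5, 458.3, 352.6 and 334 in the order of the times. Its lowest and highest times were those of WRKY22, which follows from its choice by correlation. For WRKY6 they were BRH1 (0.974), a RING-H2 gene that responds to brassinosteroid, AT2G07741 (0.948) and AT1G53430 (0.938), with 0.23% of the genes above 0.9. BRH1 had mean signals of 1121, 993.7, 1435, 1419 and 1090 in the order of the times. For NAC014 the nearest gene was AT1G07050 (0.946), for WRKY47 AT1G14780 (0.952) and for WRKY20, whose highest correlation was lower, AT1G62010 (0.875). For WRKY42, though near background, it was AT3G10530 (0.940), with 0.15% of the genes above 0.9. Each of these genes was picked as nearest out of 8693 over 10 arrays, so the correlations are descriptions.

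Few genes around the 3 families were measured. Of 23 MYB-domain genes listed under other symbols 2 were, and 1 of them rose at 6 hr, where 5.17% of all probe sets were called as higher. KUA1 (AT5G47390), a MYB-related regulator of leaf cell expansion, had mean signals of 882 at 0 hr and 892 at 3 hr and rose at 6 hr to 1244 ± 34.7 (SD, n = 2; log2 fold change 0.49, SE 0.09, adjusted p = 0.00498 by limma). It stood at 0.25 at 12 hr (adjusted p = 0.235) and 0.26 at 24 hr (adjusted p = 0.209). TRY, a MYB repressor of trichome fate, had mean signals of 64.7 at 0 hr and, near background, 34.8 at 3 hr and 35.8 at 6 hr, and neither time passed (adjusted p = 0.149 and 0.158). MYBC1, whose symbol has no number after MYB and which was added after its values were seen, ranged from -0.05 to 0.12 and did not pass. ZAP1, which is WRKY1, was the 1 measured of 3 WRKY genes under other symbols, and it stood at -0.22 at 24 hr (adjusted p = 0.263).

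Of 27 immune signalling genes 1 was measured, BIK1, a kinase below the flagellin receptor. From 3 to 6 hr it rose by 0.45 on the log2 scale (SE 0.10, adjusted p = 0.0133 by limma), a call that was lost without 3 hr replicate 2 (adjusted p = 0.0947), without 6 hr replicate 1 (0.118), without an intensity trend (0.0698) and with only the arrays compared (0.0573). Against 0 hr no time passed, with log2 fold changes of -0.29 at 3 hr (adjusted p = 0.0937) and 0.16 at 6 hr (adjusted p = 0.358). By the F test it had adjusted p = 0.045, and that call was lost in 9 of the 10 fits without 1 array, all but that without 24 hr replicate 2, with adjusted p up to 0.222. Of 7 partners of R2R3-MYB proteins MYC3 and MYC4, bHLH factors of jasmonate signalling, were measured, and neither passed, with MYC4 at 0.37 at 6 hr (adjusted p = 0.317). From 3 to 6 hr MYC4 stood at 0.62 (adjusted p = 0.0853). It passed there only with the dimmest 30% of the array left out (adjusted p = 0.0326). Of 13 glucosinolate genes 2 were measured, and both were called at 3 hr, where 8.22% of all probe sets were called, in opposite directions. BCAT4, which starts the chain elongation of methionine, fell to 0.56 times its level (log2 fold change -0.82, SE 0.11, adjusted p = 0.000764), while UGT74B1, a glucosyltransferase of the last steps, rose by 0.33 (SE 0.09, adjusted p = 0.0406). UGT74B1 was also higher at 6 hr, by 0.43 (adjusted p = 0.0105), at 12 hr, by 0.57 (adjusted p = 0.00687), and at 24 hr, by 0.51 (adjusted p = 0.0207). Of 13 phenylpropanoid and wax genes DFR and UF3GT, of anthocyanin synthesis, were measured, and both fell at 3 hr, where 8.22% of all probe sets were called, by 0.68 (SE 0.07, adjusted p = 0.000224) and by 0.35 (SE 0.08, adjusted p = 0.0235). Without any 1 of the 4 arrays compared, UF3GT and UGT74B1 lost their calls at 3 hr, and UGT74B1 also without either 12 hr array. UF3GT lost its call too after scaling to a common median (adjusted p = 0.0514), without an intensity trend (adjusted p = 0.113) and with only the arrays compared (adjusted p = 0.0553). UGT74B1 lost its later calls without control replicate 1 (adjusted p from 0.0895 to 0.16). It lost that at 6 hr also without 6 hr replicate 2, that at 12 hr without either 12 hr array, and that at 24 hr without control replicate 2, either 12 hr array or 24 hr replicate 1. DFR and BCAT4 rose again from 3 to 6 hr, where 9.14% of all probe sets were called, by 0.70 (adjusted p = 0.000147 by limma) and 0.47 (adjusted p = 0.0181). The call of BCAT4 was lost in some alternatives, as without an intensity trend (adjusted p = 0.0967). UF3GT (0.29, adjusted p = 0.0518) and UGT74B1 (0.10, adjusted p = 0.561) did not pass there. At 6 hr against 0 hr DFR stood at 0.02 (adjusted p = 0.887) and BCAT4 at -0.35 (adjusted p = 0.0608). From 6 to 12 hr, where 2.39% of all probe sets were called, they went opposite ways. DFR stood at -0.33 (adjusted p = 0.0385 by limma) and BCAT4 at 0.54 (adjusted p = 0.0227). The alternatives were not examined for this step. None of the 25 NAC genes under other symbols, 8 secondary wall genes or 13 senescence and stress genes listed was among the named probe sets, so these were not analysed here.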

How the data were processed

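The authors deposited a linear MAS5 signal intensity for each probe set on each array. The submitters' processing notes name MAS5 and Affymetrix Expression Console 1.1. Background correction and scaling target are not given in the sources used here. On each array the mean of the values was 500 once the highest and lowest 2% were removed. Per the labels' protocols, 300 ng of total RNA per sample was biotin-labelled for the arrays.

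Of 22810 probe sets, 64 controls were set aside. The probe table named 1 gene for 13513 probe sets and several for 503, and did not list 8730. Symbols and loci came from RefSeq TAIR10.1 through Entrez IDs, with no coordinates. Each of the 6 genes had 1 probe set. Depth has no meaning for arrays, and their number limits the precision.

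Signals were transformed as log2(signal + 16) and modelled by limma (version 3.58.1, R 4.3.3) with the 5 group means as coefficients, all 10 arrays together, an intensity trend and no further normalization (5 residual and 5.86 prior degrees of freedom). P-values are two-sided, adjusted by Benjamini-Hochberg over all 22746 probe sets, with a threshold of 0.05. SDs come from the 2 arrays of a group. The procedure was tested on simulated data, where the planted changes were larger than those of WRKY22 and WRKY6 against 0 hr. That test does not cover changes of their size. The rule for named genes took members called in any comparison with 0 hr or by the F test, the brightest, and up to 3 called genes of each of 11 lists, or 1 if none was called. With 6 members all were described. Alternatives are given at the end. The members and lists were chosen with earlier results of these data known.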

Additional observations from a re-analysis of the deposited data

Results flagged for a closer look

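The effects of 6 hr and of 3 hr of DEX, both against 0 hr, differed by limma's test of the difference for WRKY22, by 1.25 on the log2 scale (adjusted p = 0.000361), and for WRKY6, by 0.84 (adjusted p = 0.0123). The shared 0 hr arrays cancel in this difference, so it is the same comparison of 6 hr with 3 hr as above, with the limits given there. For each gene the 3 hr effect was below 0 (-0.45 and -0.24, neither passing) and the 6 hr effect above 0 (0.80 and 0.60, of which that of WRKY22 passed). Groups of 2 arrays were too small for a search for outlying arrays.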

How the results depend on the processing

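Of 791 log2 fold changes of the 6 genes under 19 alternatives, 783 kept the result of their test, and no called value changed direction. Of their 107 F tests 100 did, and the other 7 were those of WRKY6 without 1 array. The number called at 6 hr against 0 hr was 2 in place of 1 with an offset of 64, without the lowest 30% of probe sets and without an intensity trend, and 0 to 1 without 1 array. From 3 to 6 hr it was 1 in place of 2 when only the arrays compared were fitted, where WRKY6 had adjusted p = 0.066, and 1 to 2 without 1 array. By the F test it was 1 to 2 without 1 array. The WRKY median at 24 hr, -0.02, was 0.00 (-0.001) after quantile normalization and 0.09 (0.0907) without the lowest 30% of probe sets, where WRKY42 was no longer counted, and -0.05 (-0.051) to 0.005 without 1 array. At 6 hr the median ran from 0.2153 to 0.6705 without 1 array. Its upper end, without 6 hr replicate 1, was the value of WRKY42, which is near background. Replicate numbers did not pair the arrays: differences between replicates correlated at -0.036 to 0.088 between the 10 pairs of groups. With a replicate block WRKY22 had a log2 fold change of 0.80 at 6 hr against 0 hr, and the block changed no call of the 6 genes, though UGT74B1 lost its call at 3 hr (adjusted p = 0.0505) and BIK1 its call by the F test (adjusted p = 0.0544). UGT74B1 also lost its calls at all 4 times without an intensity trend, that at 3 hr after quantile normalization (adjusted p = 0.0516), and those at 3 and 24 hr with only the arrays compared (adjusted p = 0.06 and 0.154). The F test call of BIK1 was also lost with an offset of 64, after either rescaling and without an intensity trend (adjusted p from 0.0515 to 0.168). Scaling to a common median moved the split of all calls at 3 hr from 890 of 1870 higher to 1181 of 1871, and from 3 to 6 hr from 1173 of 2080 to 958 of 2307. Symbols with nothing after the number gave the same 6 genes and the same fit, so this alternative, counted among the 19, could change no value. Where no value or construction is named, the cause was not tested. Signals near background limit what can be said of WRKY42.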
